A study of Mus musculus with 6 samples.

Results

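The B cell receptor signalling genes examined here were Blk, Bank1, Cd79a, Cd79b, Pax5, Blnk, Cd22, Cd72 and Pou2af1. They are 9 of the 18193 genes that the platform annotation gives as the single symbol of a probe set, and they were chosen by symbol. All probe sets assigned to exactly 1 of these symbols were taken, 11 of the 45037 that are not array controls. Expression was measured on 6 Affymetrix 3 prime arrays of RNA from c-Kit+Sca-1+Lin- (KSL) cells of C57BL/6J mouse bone marrow, the gate that holds blood stem cells and early progenitors. There were 3 biological replicates with mD1R and 3 with PBS. In both groups the cells had grown for 7 days on a layer of human endothelium from the umbilical vein (HUVECs) in serum-free medium with a cocktail of 5 mouse cytokines, and the KSL fraction was sorted again before RNA extraction. The labels do not spell out mD1R, which is known as a recombinant Notch ligand protein built on mouse Delta-like 1 and targeted to endothelium. The labels name the strain of the cells but give no age, and they do not say how many mice each replicate came from.

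The B cell receptor is a membrane immunoglobulin that cannot signal alone. It passes its signal through the paired chains Cd79a and Cd79b to Src family kinases such as Blk, and from there through adaptors such as Blnk and Bank1 to calcium release and gene activation, while Cd22 and Cd72 are lectin-like surface receptors that recruit a phosphatase and damp the signal. Pax5 commits progenitors to the B lineage and activates several of the other genes, among them Cd79a, Blnk and Cd72, and Pou2af1 is a coactivator that joins octamer-binding factors on B cell promoters. Early lymphoid progenitors in bone marrow begin to transcribe some of these genes before they carry a receptor, and Blnk and Cd72 are also known in macrophages.

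RefSeq promoter windows (GRCm38.p6, 250 bases before the annotated start to 50 after it) were at hand for 7 of the 9 genes, and for all but Blk and Cd79b. The windows of Bank1, Cd22 and Blnk are shown because they set a gene that fell with mD1R beside the pair that was high on the same mD1R arrays. Capitals mark the letters CCCNNGGG, the core of the palindrome bound by early B cell factor, in Bank1 (chr3:136326017-136326316, minus strand) and Cd22 (chr7:30878979-30879278, minus strand), and the octamer ATGCAAAT, read on the opposite strand, in Blnk (chr19:40994172-40994471, minus strand).
Bank1: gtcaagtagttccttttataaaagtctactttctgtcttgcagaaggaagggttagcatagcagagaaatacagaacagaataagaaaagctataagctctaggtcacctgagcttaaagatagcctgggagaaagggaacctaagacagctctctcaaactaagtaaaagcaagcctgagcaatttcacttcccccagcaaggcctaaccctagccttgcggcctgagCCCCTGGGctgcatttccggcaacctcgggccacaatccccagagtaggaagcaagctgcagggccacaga
Cd22: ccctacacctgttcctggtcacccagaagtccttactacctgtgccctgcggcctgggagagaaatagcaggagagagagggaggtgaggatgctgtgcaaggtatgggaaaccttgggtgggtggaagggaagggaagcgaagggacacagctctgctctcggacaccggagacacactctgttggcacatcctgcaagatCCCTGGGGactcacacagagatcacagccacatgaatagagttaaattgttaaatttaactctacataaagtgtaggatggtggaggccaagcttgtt
Blnk: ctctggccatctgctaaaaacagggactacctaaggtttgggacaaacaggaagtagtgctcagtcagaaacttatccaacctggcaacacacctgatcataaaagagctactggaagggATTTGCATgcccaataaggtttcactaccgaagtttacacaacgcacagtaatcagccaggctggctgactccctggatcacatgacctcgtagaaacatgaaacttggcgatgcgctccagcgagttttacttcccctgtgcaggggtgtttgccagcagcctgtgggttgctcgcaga
Background shares were counted over 32851 windows of this length, with the windows of 1 chromosome left out. Of these, 13.7% held CCCNNGGG on either strand. Among the members only Bank1 and Cd22 did, at -21 to -14 and at -48 to -41 from the start. The octamer was in 1.74% of windows, and Blnk was the 1 member of 7 that held it, at -130 to -123. The purine-rich letters GAGGAA, contained in sites of PU.1 and other Ets factors, were in 28.3% of windows and in those of Cd72, Cd79a and Pou2af1. The Pax5 window held none of the 3 motifs. The motifs do not overlap in these windows, and a match is a description of the letters only.

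With mD1R, 3 of the genes fell. Bank1 fell by 2.50 ± 0.26, Blk fell by 1.62 ± 0.31 and Cd79b fell by 0.90 ± 0.22 on the log2 scale (SE, n = 3 per group). No member was higher past the threshold. Cd79a and Pou2af1 were low on 2 of the 3 mD1R arrays, Blnk and Cd22 were high on those same 2 arrays, and Pax5 lay below the signal filter. The values are log2 signals, and groups were compared with limma across 27022 probe sets whose mean signal reached 5.27, with Benjamini-Hochberg adjustment and a threshold of 0.05. A gene was represented by its brightest probe set. Of the 9 genes, 8 were tested, 3 fell and 5 did not pass, while over all 12320 genes tested 7.09% fell and 8.49% rose. At an unadjusted p of 0.05, 4 of the 8 were lower and 1, Cd72, was higher, where 8048 of all 27022 probe sets had such a p in either direction. The median log2 difference of the 8 tested genes was -0.996, against 0.090 over all genes tested.

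**Figure D1:**
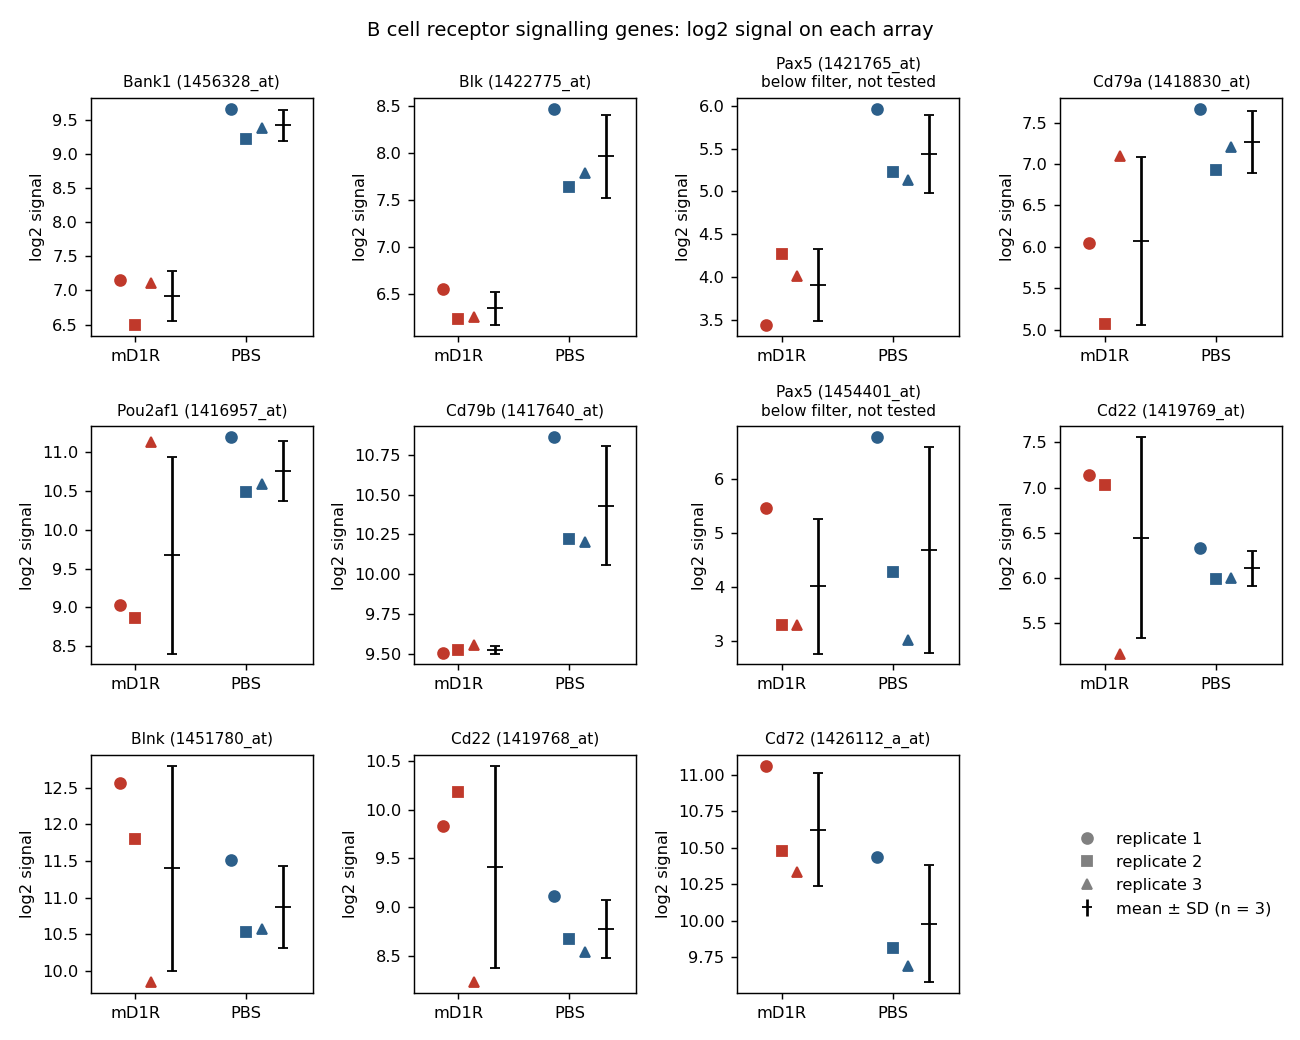
Log2 signal of each of the 11 member probe sets on each array, mD1R left and PBS right in each panel, with a marker shape per replicate number and the mean ± SD of 3 arrays in black. The groups are apart for Bank1, Blk, Cd79b and one Pax5 probe set, and mD1R replicate 3 is apart from mD1R replicates 1 and 2 for Pou2af1, Blnk and both Cd22 probe sets.

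Some facts of the arrays touch these results. Array medians lay between 6.16 and 6.27 with mD1R and between 6.07 and 6.42 with PBS. Arrays of mD1R correlated less with each other (Pearson r across probe sets of 0.941 for replicates 1 and 2, 0.909 for 1 and 3 and 0.931 for 2 and 3) than PBS arrays did among themselves (0.955 to 0.976). The hybridisation control BioB, taken against the mean of BioC, BioD and cre, lay between -3.09 and -2.99 on mD1R replicates 1 and 2 and PBS replicate 1, and between -5.56 and -5.50 on mD1R replicate 3 and PBS replicates 2 and 3. Differences within these BioB sets are therefore given below, and in each set 1 of the groups is a lone array. PBS replicate 1 was the highest PBS array for all 11 member probe sets, which was also so for 47.5% of all genes tested. In bulk RNA, fewer cells of a type and less RNA per cell cannot be told apart. The labelled gate could be checked in part. Kit had log2 signals of 11.37, 11.13 and 9.58 with mD1R and of 9.97, 8.85 and 9.21 with PBS (adjusted p = 0.109). The probe sets of Ly6a, which encodes Sca-1, were not used here because none has a single symbol. Among other surface genes by which early progenitors are told apart, Cd34 and Flt3 moved with the groups, and their part in the results was not tested. Cd34 had 9.89, 10.96 and 10.49 with mD1R, against 9.41, 8.03 and 7.98 with PBS, and rose by 1.98 ± 0.43 (adjusted p = 0.0263). Flt3, a receptor of early lymphoid and other progenitors, had 5.45, 7.56 and 6.17 with mD1R, against 8.72, 8.04 and 8.64 with PBS, and fell by 2.08 ± 0.52 (adjusted p = 0.0377). The groups did not overlap for either gene, but the Cd34 call was lost without mD1R replicate 2, PBS replicate 2 or PBS replicate 3, and the Flt3 call without any single array other than mD1R replicate 2. Slamf1, Cd48 and Ptprc differed by 1.40 ± 0.43, 0.77 ± 0.37 and -0.34 ± 0.21 and did not pass.

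Of the signalling chains of the receptor, Cd79b fell and Cd79a did not pass. Cd79b had log2 signals of 9.50, 9.52 and 9.55 with mD1R, against 10.86, 10.22 and 10.21 with PBS. The mD1R arrays were nearly level with each other and all lay below the lowest PBS array, by at least 0.65. The difference was -0.90 (95% interval -1.41 to -0.39, adjusted p = 0.0362), with -1.35 and -0.66 within the higher and lower BioB sets. Cd79a had 6.04, 5.07 and 7.09 with mD1R, against 7.67, 6.93 and 7.21 with PBS. Replicates 1 and 2 of mD1R lay below every PBS array, and replicate 3 lay inside the PBS range. The difference in Cd79a was -1.20 (95% interval -2.38 to -0.017, adjusted p = 0.163), and it was -2.11 in the higher BioB set and 0.025 in the lower. Without mD1R replicate 3, Cd79a differed by -1.71 and passed (adjusted p = 0.0286). Without mD1R replicate 1, mD1R replicate 2, PBS replicate 1, PBS replicate 2 or PBS replicate 3, Cd79b no longer passed (adjusted p = 0.0734, 0.105, 0.0721, 0.0891 and 0.0976), with differences from -1.02 to -0.69.

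Among the kinase and the adaptors, Blk and Bank1 fell and Blnk did not pass. Blk, a Src family kinase of B lineage cells, had 6.55, 6.23 and 6.26 with mD1R, against 8.47, 7.64 and 7.78 with PBS. The groups were apart by 1.09, more than the spread of either. The difference was -1.62 (95% interval -2.32 to -0.91, adjusted p = 0.0183), with -2.08 and -1.45 within the BioB sets, a ratio of PBS over mD1R of 3.07. The call was lost without mD1R replicate 2 (adjusted p = 0.0646), PBS replicate 1 (0.0521), PBS replicate 2 (0.0541) or PBS replicate 3 (0.0742). Bank1, a scaffold with ankyrin repeats that ties receptor kinases to calcium release, had 7.15, 6.49 and 7.10 with mD1R, against 9.66, 9.21 and 9.38 with PBS. This was the widest gap among the members, 2.07 between the highest mD1R and the lowest PBS array. Bank1 fell by 2.50 (95% interval -3.11 to -1.89, adjusted p = 0.00961), the ratio of PBS over mD1R was 5.66, and 1.44% of all genes tested had a difference at least as low. The differences in Bank1 were -2.84 and -2.19 within the BioB sets, and the call was lost only without PBS replicate 3 (adjusted p = 0.0663, difference -2.52).

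Blnk, the adaptor that brings Btk and phospholipase C to the activated receptor, had 12.56, 11.80 and 9.85 with mD1R, against 11.52, 10.53 and 10.58 with PBS. Replicates 1 and 2 of mD1R were above every PBS array, and replicate 3 was below every one. The difference of 0.53 did not pass (95% interval -0.93 to 1.99, adjusted p = 0.623). It was 0.66 in the higher BioB set and -0.71 in the lower, and with the BioB set as a block it was -0.023. Without mD1R replicate 3 it was 1.30 and passed (adjusted p = 0.0403), and without mD1R replicate 1 it was -0.051. Blnk thus had no direction that all arrays share, in contrast to Bank1, Blk and Cd79b.

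**Figure D2:**
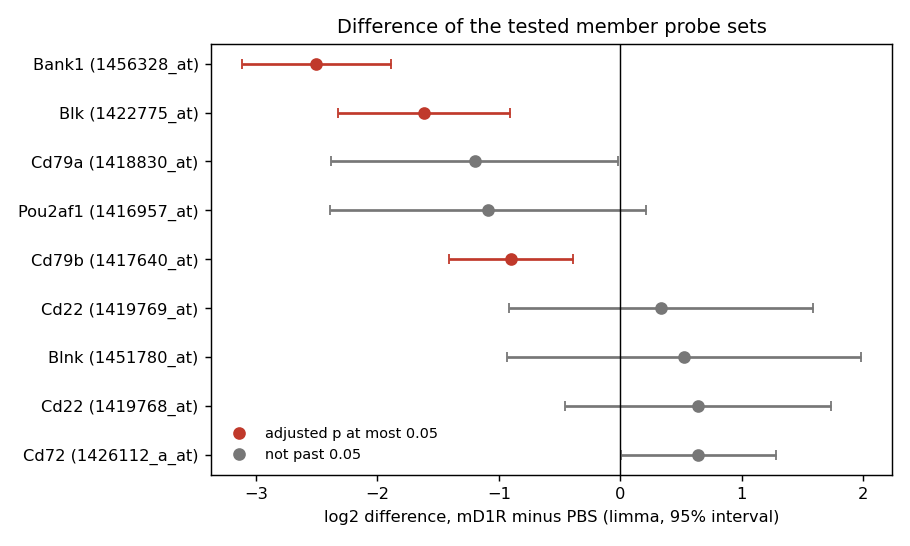
Log2 difference (mD1R minus PBS) of the 9 tested member probe sets with limma's 95% intervals, red where the adjusted p is at most 0.05. Bank1, Blk and Cd79b lie below 0 with their whole interval and pass. The intervals of Cd79a and Cd72 also leave out 0, narrowly, but these genes do not pass. The intervals are not adjusted for the number of probe sets tested.

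Of the inhibitory receptors, neither Cd22 nor Cd72 passed. Cd22, a sialic acid-binding lectin, was read by a pair of probe sets. The brighter one had 9.83, 10.18 and 8.23 with mD1R, against 9.11, 8.67 and 8.54 with PBS, and the other had 7.14, 7.03 and 5.16 with mD1R, against 6.33, 5.99 and 6.00 with PBS. Both showed mD1R replicates 1 and 2 as the highest arrays and mD1R replicate 3 as the lowest of all 6. Their differences of 0.64 and 0.34 did not pass (adjusted p = 0.410 and 0.723). Within the BioB sets the brighter one differed by 0.89 and -0.38. Without mD1R replicate 3 it differed by 1.23 and passed (adjusted p = 0.0132). Cd72, a C-type lectin of B cells, had 11.06, 10.48 and 10.33 with mD1R, against 10.44, 9.81 and 9.69 with PBS. Here mD1R replicates 1 and 2 were above all PBS arrays, and replicate 3 lay just under PBS replicate 1. The difference of 0.64 (95% interval 0.0070 to 1.28, adjusted p = 0.164) did not pass, but it was positive within both BioB sets, at 0.33 and 0.58. Cd72 passed with the replicate number as a block (adjusted p = 0.0468) and with array weights (adjusted p = 0.0393).

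The transcriptional regulators were less well measured. Pax5 was below the filter with both probe sets and was not tested with the other genes. The brighter one had 3.44, 4.27 and 4.01 with mD1R, against 5.96, 5.22 and 5.13 with PBS. The groups were apart by 0.86, yet 5 of the 6 values lay under the filter level, where MAS5 signals are noisy. With no filter the difference of -1.53 did not pass (adjusted p = 0.174). The dimmer Pax5 probe set had 5.46, 3.30 and 3.30 with mD1R, against 6.78, 4.28 and 3.01 with PBS, and its groups overlapped. Pou2af1 had 9.02, 8.86 and 11.13 with mD1R, against 11.19, 10.49 and 10.60 with PBS. Replicates 1 and 2 of mD1R lay below every PBS array, whereas replicate 3 was above PBS replicates 2 and 3. The difference of -1.09 (95% interval -2.39 to 0.21, adjusted p = 0.239) did not pass. Without mD1R replicate 3 it was -1.82 and passed (adjusted p = 0.00325), and within the BioB sets it was -2.26 and 0.59. Of the genes named above as activated by Pax5, neither Cd79a nor Blnk nor Cd72 passed in the comparison of all 6 arrays.

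**Figure D3:**
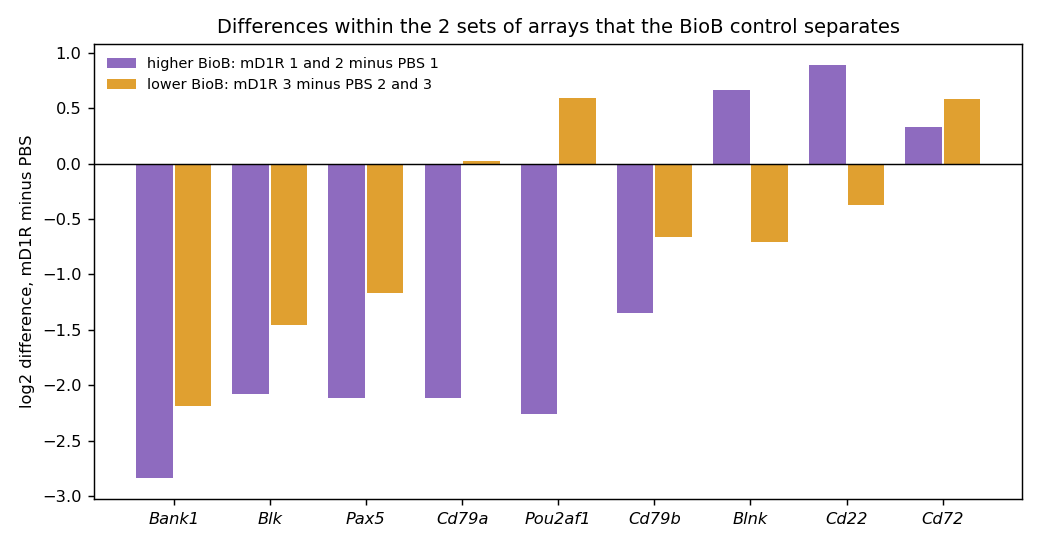
Log2 difference (mD1R minus PBS) of the main probe set of each member within the arrays of higher BioB signal (mD1R replicates 1 and 2 and PBS replicate 1, purple) and of lower BioB signal (mD1R replicate 3 and PBS replicates 2 and 3, orange). Bank1, Blk, Pax5 and Cd79b are negative and Cd72 is positive in both sets, while Pou2af1, Blnk and Cd22 change sign and Cd79a is 0.025 in the lower set.

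Of the 8 tested members, 7 showed 1 of 3 arrangements over the arrays, described after the values were seen, and Cd72 showed none of them. For Bank1, Blk and Cd79b every mD1R array was below every PBS array, and no tested member had every mD1R array above. Over all genes tested these arrangements were found in 18.1% and 22.1%. For Cd79a and Pou2af1 mD1R replicates 1 and 2 were below every PBS array and replicate 3 was not, an arrangement found in 6.29% of all genes tested. For Blnk and Cd22 mD1R replicates 1 and 2 were above and replicate 3 below every PBS array, found in 2.20% of all genes tested. No array of Bank1, Blk or Cd79b was under the filter level. The filter did keep Pax5 out of the first set. Its brighter probe set also had every mD1R array below every PBS array, by at least 0.86. The genes with the profile closest to the median profile of the tested members, by the root mean square difference of centred log2 signals over 6 arrays, were Ccdc34 (0.107), Rbl1 (0.119), Nsd2 (0.127) and Cbx5 (0.136), where the median over all genes was 0.731.

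Genes around the receptor were taken as 5 lists of 93 genes in all, of which 81 were tested. Of these 13 fell, 5 rose and 63 did not pass, where 7.09% and 8.49% of all genes tested fell and rose. The median log2 difference of the 81 was -0.37. Of the falls, 6 were among B lineage transcription factors. Leaving out mD1R replicates 1, 2 and 3 in turn, 10, 6 and 23 fell and 5, 1 and 8 rose. Over the whole array 2192, 723 and 5565 probe sets passed in these settings, against 3413 in the main fit. Leaving out PBS replicates 1, 2 and 3, 5, 3 and 0 fell and 2, 1 and 0 rose in limma, where 1294, 544 and 0 probe sets passed over the whole array. Without PBS replicate 3, 5853 probe sets still had an unadjusted p under 0.05. With the replicate number as a block 22 fell and 8 rose, and with array weights 25 fell and 10 rose. Over the whole array 4619 and 6508 probe sets passed in those 2 settings.

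Of the 18 proximal kinases, adaptors and effectors of the receptor, 1 rose and 1 fell, a share near that over all genes tested (8.49% and 7.09%), and the median over differences of both signs was 0.080. Syk, the kinase that docks on Cd79a and Cd79b, had 12.41, 12.55 and 12.31 with mD1R, against 11.70, 12.19 and 12.15 with PBS (adjusted p = 0.194). The kinase gene Btk differed by 0.089 ± 0.23 and the phospholipase gene Plcg2 by -0.73 ± 0.27, and neither passed. These 3 were named outside the rule, for their place next to Blnk. Prkcb, a protein kinase C gene, fell by 0.94 ± 0.23 (adjusted p = 0.0362), and Sos1, an exchange factor for Ras, rose by 0.82 ± 0.20 (adjusted p = 0.0338). Both calls were lost without any single array other than mD1R replicate 3.

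Of the 12 inhibitory genes, 3 fell and 1 rose, where 7.09% and 8.49% of all genes tested fell and rose. Siglecg, a sialic acid-binding lectin related to Cd22, had 8.45, 7.31 and 7.43 with mD1R, against 10.19, 9.21 and 9.27 with PBS. It fell by 1.83 ± 0.39 (adjusted p = 0.0240), with differences of -2.32 and -1.81 within the BioB sets, where Cd22 changed sign. Ceacam1, an adhesion receptor with inhibitory tyrosine motifs, fell by 2.94 ± 0.49 (adjusted p = 0.0140), and the adaptor gene Dok3 fell by 1.57 ± 0.35 (adjusted p = 0.0269). Fcgr2b, the inhibitory receptor for IgG, which myeloid cells and mast cells also carry, had 14.04, 14.71 and 14.21 with mD1R, against 12.99, 13.37 and 13.32 with PBS, and rose by 1.09 ± 0.22 (adjusted p = 0.0221). All 4 lost the call without mD1R replicate 2, PBS replicate 2 or PBS replicate 3. Siglecg, Dok3 and Fcgr2b also lost it without PBS replicate 1, and Dok3 without mD1R replicate 1.

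Of 20 B lineage transcription factors, 6 fell and none rose in limma (13 and 1 at an unadjusted p of 0.05), with a median of -1.06. Over all genes tested, 7.09% fell and 8.49% rose. An unadjusted p under 0.05 was found for 8048 of all 27022 probe sets. Ebf1, an early B cell factor gene, had 5.71, 5.78 and 5.41 with mD1R, against 9.37, 8.22 and 8.06 with PBS. Its groups were apart by more than their spread, with differences of -3.63 and -2.73 within the BioB sets (adjusted p = 0.0109). Bach2, a repressor of plasma cell genes, had 7.11, 7.74 and 6.74 with mD1R, against 10.29, 9.04 and 9.05 with PBS (adjusted p = 0.0165). Ikzf1 (Ikaros) had 11.05, 11.44 and 12.00 with mD1R, against 12.74, 13.08 and 13.18 with PBS (adjusted p = 0.0152). Id3, an inhibitor of E proteins, fell by 1.82 ± 0.42 (adjusted p = 0.0312). Calls for Ebf1 and Bach2 were lost only without PBS replicate 3 (as for every gene in that setting). The call for Ikzf1 was also lost without mD1R replicate 2 or PBS replicate 2, and that for Id3 without any single array other than mD1R replicate 3.

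Of 13 genes of the pre-B receptor and of recombination, 3 fell and 1 rose. Over all genes tested the shares were 7.09% and 8.49%. Igll1 and Vpreb3 belong to the surrogate light chain genes and their relatives. Igll1 had 5.91, 8.69 and 8.06 with mD1R, against 11.13, 10.36 and 10.45 with PBS (adjusted p = 0.0232), and Vpreb3 had 6.58, 8.84 and 8.46 with mD1R, against 10.68, 9.75 and 9.78 with PBS (adjusted p = 0.0479). Dntt, the terminal transferase gene, had 5.65, 6.92 and 7.00 with mD1R, against 10.74, 9.45 and 9.65 with PBS (adjusted p = 0.0109). Unlike Cd79a and Pou2af1, these genes were below every PBS array on mD1R replicate 3 as well. Il7r, the receptor chain for the lymphoid cytokine IL-7, went the other way, with 14.13, 13.08 and 12.43 with mD1R and 11.64, 10.67 and 10.62 with PBS (adjusted p = 0.0208). Without PBS replicate 3 none of these 4 passed. Igll1 and Vpreb3 also lost the call without PBS replicate 1 or 2, Il7r without PBS replicate 2, and Vpreb3 and Il7r without mD1R replicate 2.

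Among 18 mature B and plasma cell genes, 2 rose and none fell in limma (2 and 4 at an unadjusted p of 0.05), with a median of -0.25. The share that rose was near that over all genes tested, of which 8.49% rose and 7.09% fell. An unadjusted p under 0.05 was found for 8048 of all 27022 probe sets. The plasma cell repressor gene Prdm1, which is also expressed in T cells and myeloid cells, had 9.44, 9.70 and 9.04 with mD1R, against 6.94, 7.71 and 7.70 with PBS (adjusted p = 0.0118), a call lost only without PBS replicate 3. Sdc1, which encodes syndecan 1 and is not limited to plasma cells, rose by 2.01 ± 0.45 (adjusted p = 0.0275) and lost the call without any single array other than mD1R replicate 3. Ighm, Jchain and Mzb1, named after their values were seen, were arranged like Pou2af1. Ighm had 10.58, 12.34 and 15.14 with mD1R, against 13.20, 15.04 and 15.23 with PBS. Jchain had 11.49, 11.40 and 14.64 with mD1R, against 14.16, 14.73 and 14.73 with PBS. Mzb1 had 8.97, 9.65 and 12.34 with mD1R, against 11.16, 11.75 and 11.75 with PBS, and none of the 3 passed (adjusted p from 0.127 to 0.319).

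**Figure D4:**
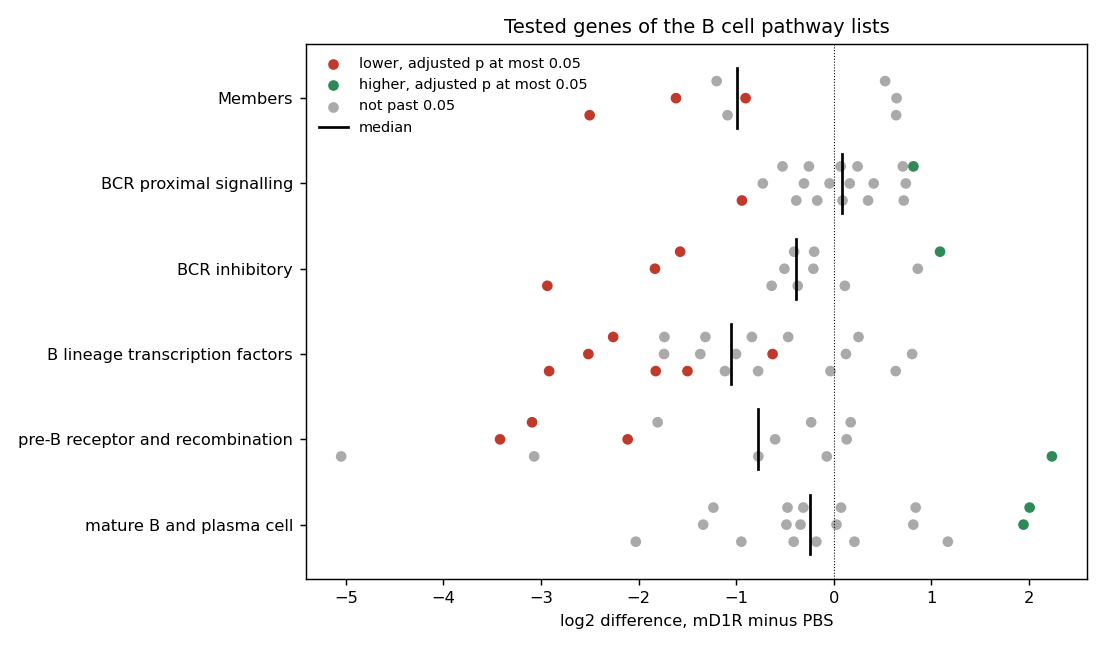
Log2 difference (mD1R minus PBS) of each tested gene of the members and of the 5 lists around the receptor, 1 point a gene, red for falls and green for rises at an adjusted p of at most 0.05, with the median as a black line. The medians are -0.996 for the members, 0.080 for proximal signalling, -0.39 for inhibitory genes, -1.06 for transcription factors, -0.77 for the pre-B receptor and recombination and -0.25 for mature B and plasma cell genes.

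Marker genes of other cell types moved between the groups as well, and their part in the values above was not tested. Summed signals of a marker list are given as log2 of the sum over its genes with a single symbol, tested or not. No marker was listed at 0. Counts of falls and rises cover tested genes only. Over all genes tested, 7.09% fell and 8.49% rose. Of 7 natural killer cell markers 6 fell, among them Klrd1, which fell by 2.22 ± 0.40, and Il2rb, which fell by 2.22 ± 0.42. Their sums were 10.52 to 11.33 with mD1R and 12.23 to 13.12 with PBS. Several of the 6 had mD1R signals under the filter level, where MAS5 signals are noisy, among them Il2rb (4.52 on replicate 1). Of 5 T cell markers 2 fell, Cd3d and Cd3g, with sums of 9.38 to 10.77 with mD1R and 10.17 to 10.23 with PBS. Cd3d lay under the filter level on 2 mD1R arrays and Cd3g on 1. Cd28 gave the largest part of the mD1R sums and did not pass (adjusted p = 0.111). It had 10.57, 8.93 and 9.45 with mD1R, against 8.44, 8.70 and 8.61 with PBS. Of 8 plasmacytoid dendritic cell markers 3 rose and 1 fell, with sums of 14.08 to 14.51 with mD1R and 13.15 to 13.39 with PBS. Bst2, Tlr7 and Irf7, which other cells express as well, rose by 1.75 ± 0.25, 1.71 ± 0.28 and 1.49 ± 0.36. The gene that fell was Siglech, a defining marker of these cells, at 5.55, 6.61 and 5.86 with mD1R, against 10.12, 8.09 and 8.24 with PBS. Cd28, Siglech and Irf7 were named after their values were seen.

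Monocyte and macrophage markers rose in 5 of 7 cases, among them Ms4a7 (by 2.15 ± 0.21) and Msr1 (by 2.29 ± 0.31), with sums of 16.51, 16.94 and 16.14 with mD1R, against 14.69, 15.21 and 15.14 with PBS. The lowest mD1R sum was that of replicate 3, and it was above all PBS sums. Blnk and Cd22 were low on that array, and a link to these markers was not tested. Neutrophil markers fell in 1 of 8 cases, where Mmp9 fell by 4.38 ± 1.13, while Mpo differed by -4.10 ± 1.36 and did not pass. Their sums were 14.52, 16.53 and 17.99 with mD1R, against 17.66, 17.96 and 18.04 with PBS. Replicate 3 of mD1R was in the PBS range for the neutrophil sum and also for Cd79a and Pou2af1, and a link between them was not tested. Mast cell and basophil markers rose in 7 of 9 cases, among them Cpa3 (by 2.78 ± 0.26) and Fcer1a (by 2.66 ± 0.45). The 7 include a gene that lay under the filter level on all 3 PBS arrays. The sums of the list were 15.69, 15.89 and 16.42 with mD1R, against 14.36, 13.97 and 13.67 with PBS. All mD1R sums were apart from all PBS sums here. The same held for the natural killer, plasmacytoid dendritic, monocyte and macrophage, and megakaryocyte lists. Megakaryocyte markers rose in 2 of 6 cases, Pf4 (by 1.92 ± 0.26) and Gp9 (by 1.64 ± 0.28), with sums of 15.13 to 15.76 with mD1R and 12.99 to 14.31 with PBS. Erythroid markers fell in 1 of 4 cases, where Slc4a1 fell by 5.72 ± 1.45, while Epor differed by 0.55 ± 0.39 and did not pass. Slc4a1 had 1.43, 1.76 and 7.27 with mD1R, against 10.51, 8.49 and 8.63 with PBS. Its values on mD1R replicates 1 and 2 lay far under the filter level, where MAS5 signals are noisy. The erythroid sums were 11.66 to 12.18 with mD1R and 11.56 to 12.73 with PBS. Tfrc, named after its values were seen, gave the largest part of each sum (11.47 to 12.06 with mD1R, 11.20 to 11.99 with PBS). Without PBS replicate 3 no marker passed. Among the markers named here, calls were also lost without mD1R replicate 2 for Cd3g, Klrd1, Il2rb, Tlr7, Irf7, Siglech, Gp9, Mmp9 and Slc4a1, and without PBS replicate 2 for these genes other than Tlr7 and Gp9 and for Fcer1a. Irf7, Il2rb, Mmp9 and Slc4a1 lost theirs without PBS replicate 1, and Irf7, Siglech, Mmp9 and Slc4a1 without mD1R replicate 1.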

How the data were processed

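Total RNA of sorted KSL cells was labelled with the 3 prime IVT kit and hybridised, per the labels' protocols. The authors deposited log2 signals of 45101 probe sets, and the submitters' processing notes name MAS5. Scaling was per array, to a 2% trimmed mean of 500.0 on the linear scale. Low values were listed as 0 in 239 to 422 cases an array. Without detection calls, a dim signal cannot be set apart from background. Probe sets were named through the platform annotation: 34945 carried 1 symbol, 932 several and 9160 were not listed there. Precision is limited by the number of arrays.

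The log2 values were compared as deposited with limma 3.58.1 in R 4.3.3 (lmFit, eBayes with a variance trend, two-sided), leaving out array controls and probe sets with a mean below the 40th percentile. P-values were adjusted over all 27022 probe sets, of which 3413 passed 0.05. The fit was tested on simulated data. No arrays of a group shared values above 0, and the SD of their differences was 0.504 to 0.960. The members and lists were chosen with earlier results of these data known. Named were all member probe sets, of each pathway list the 4 smallest p-values past the threshold (otherwise 2), gate markers, of each other marker list the 2 smallest p-values, and the 4 genes of closest profile. Genes named outside the rule are marked as such. Alternatives covered scaling, pseudocount, filter, variance model, array weights, blocks, probe set choice, threshold and each array left out. Same-numbered arrays share a number and, by the labels, nothing else. Nothing says whether replicates came from separate mice, so p-values measure the spread between these samples.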

Additional observations from a re-analysis of the deposited data

How the results depend on the processing

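Bank1, Blk and Cd79b stayed the 3 members called lower with arrays centred on their medians, quantile normalization, a pseudocount of 16, no filter, the 60th percentile filter, robust variance, array weights, either block, and averaged probe sets. Unadjusted p with at least a 2-fold change also gave 3, with Cd79a in place of Cd79b, and no variance trend gave 2, because Cd79b lost its call (adjusted p = 0.0660). Leaving out each array gave 0 to 5 members, 0 to 23 other pathway genes against 13, and 0 to 5565 probe sets against 3413. The cause was not tested, and each of these refits also holds fewer samples than the main fit. The members' median of -0.996 lay between -1.25 and -0.69 without single arrays. Array weights gave 6508 probe sets and 25 other pathway genes, and no variance trend 2213 probe sets. The difference in Blnk of 0.53 became -0.023 with the BioB set as a block and lay between -0.051 and 1.30 without single arrays, lowest without mD1R replicate 1. The differences in the other tested members kept their sign in these refits, though not within single BioB sets for Cd22, Pou2af1 and Cd79a. Pax5 kept its sign with no filter and without each array, and was not refitted otherwise. The paired analysis with the replicate block gave 4619 probe sets, 3 members and 22 other pathway genes. Deviations of same-numbered arrays correlated at 0.31, 0.028 and 0.13, so the numbers were not taken to pair the samples, and mD1R replicate 2 deviated most like PBS replicate 3 (0.091). Low MAS5 signals limit what can be said of Pax5.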
